A study of Mus musculus with 8 samples.

Results

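RNA levels of 9 genes of the Polycomb system were followed in murine keratinocytes (KCs), the epithelial cells of the epidermis, after 1 week and 3 weeks of culture. The 9 genes were the methyltransferase genes Ezh1 and Ezh2, their partners Suz12 and Eed, the Polycomb repressive complex 1 (PRC1) genes Bmi1, Cbx2, Cbx7 and Cbx8, and the demethylase gene Kdm6b. They were picked by gene symbol, with earlier results of these data known, from the 41457 genes of the deposited tables, and all 9 had enough reads to be among the 12590 genes tested. The cells came from the tail skin of adult Wildtype C57BL/6 mice (C57BL/6J in the study's text), received no treatment and grew in serum-free medium at low calcium, and the labels of the groups differ in the weeks of culture. Each group held 4 samples (n = 4), and the deposited labels do not state whether the samples of a group came from separate animals, so that p-values measure the spread between these samples.

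Polycomb proteins keep genes silent by marking histones. PRC2 methylates lysine 27 of histone H3 through EZH1 or EZH2, which work only together with SUZ12 and EED. Canonical PRC1 binds this mark through a chromodomain protein of the CBX family and contains a PCGF protein such as BMI1. The demethylase KDM6B removes the mark. The Cdkn2a locus, which encodes the cell cycle inhibitors p16INK4a and p19ARF and lies beside Cdkn2b with its product p15INK4b, is a classical target of both complexes in epidermal and other primary cells.

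Poly(A) RNA was sequenced to between 13896807 and 20026084 reads on exons per sample. Levels are given as deposited RPKM values, in which reads are divided by exon length and sequencing depth. This exon length can exceed that of the longest transcript of a gene. It was 6678 bases for Ezh2, against 2787 for its longest transcript, and 7440 against 4207 for Ezh1. For Suz12 it was 4945 against 4373. Levels of different genes can therefore be compared only roughly, and orders and ratios between genes depend on this length. The raw exon reads of all 8 samples were fitted in edgeR with TMM scaling. Fold changes put 3 weeks over 1 week and carry a standard error (SE), and p-values of the quasi-likelihood test were adjusted over every tested gene by the Benjamini-Hochberg procedure. A gene with an adjusted p-value under 0.05 is called higher or lower. Deposited RPKM values lack the TMM scaling. Over all tested genes, the median log2 fold change was 0.03 in the edgeR fit and -0.16 for log2(RPKM + 0.1), so that falls look slightly larger in RPKM values than in the fitted fold changes. The 8 keratinocyte markers summed to 12256 to 14539 RPKM at 1 week and 7255 to 8410 RPKM at 3 weeks. Of the 8, 2 were called lower, Krt5 and Itga6, and Krt14 was not called. Markers of suprabasal KCs (7 genes) summed to 23.7 to 128 RPKM at 1 week and 21.3 to 68.2 RPKM at 3 weeks. Of the 6 tested, 2 were called lower. Sbsn alone averaged 59.4 RPKM at 1 week and 29.8 RPKM at 3 weeks, with only 7.3% of its reads uniquely mapped. Over all samples, the sums were 2.84 to 6.98 RPKM for 8 fibroblast markers and 1.66 to 21.5 RPKM for 7 melanocyte markers. They were 1.42 to 4.37 RPKM for 7 leukocyte markers and 0.275 to 0.568 RPKM for 5 endothelial markers. All of these were lower by far than the keratinocyte sums, but the melanocyte range reached the lowest suprabasal sum (21.3 RPKM at 3 weeks). Cd207, which marks Langerhans cells, had no read in any sample. The melanocyte sum was 3.61 to 21.5 RPKM at 1 week and 1.66 to 6.04 RPKM at 3 weeks, with 1 of the 5 tested genes (Pmel) called lower, and its part in the results was not tested. In bulk RNA, a change in the number of cells that express a gene and a change in RNA per cell cannot be told apart. The sample 3 weeks replicate 3 had low values for long transcripts, as described with Kdm6b.

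The 9 genes did not move as a group. Ezh2 fell 3.32-fold, Suz12 fell 1.45-fold, and Cbx8 rose 1.64-fold, while Ezh1, Eed, Bmi1, Cbx2, Cbx7 and Kdm6b did not pass the test. Thus 3 of the 9 genes, or 33.3%, were called, 1 higher and 2 lower. Among all tested genes 32.8% were called, 15.7% higher (1981 genes) and 17.0% lower (2146 genes), so that the share among the 9 genes was close to the background. On the log2(RPKM + 0.1) scale, limma split the calls over all genes into 1313 higher and 3089 lower. Their median log2 fold change was 0.01, against 0.03 for all tested genes. In the same samples, Cdkn2a RNA was 32.3, 29.8, 12.9 and 6.97 RPKM in replicates 1 to 4 at 1 week and 142, 156, 222 and 210 RPKM at 3 weeks, a log2 fold change of 3.33 (SE 0.48, adjusted p = 0.00124). Cdkn2b RNA was 57.9, 50.1, 55.9 and 33.8 RPKM at 1 week and 119, 127, 146 and 180 RPKM at 3 weeks, a log2 fold change of 1.70 (SE 0.21, adjusted p = 0.000670). The reads of Cdkn2a do not separate the transcripts of p16INK4a and p19ARF, which differ in their first exon.

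**Figure D1:**
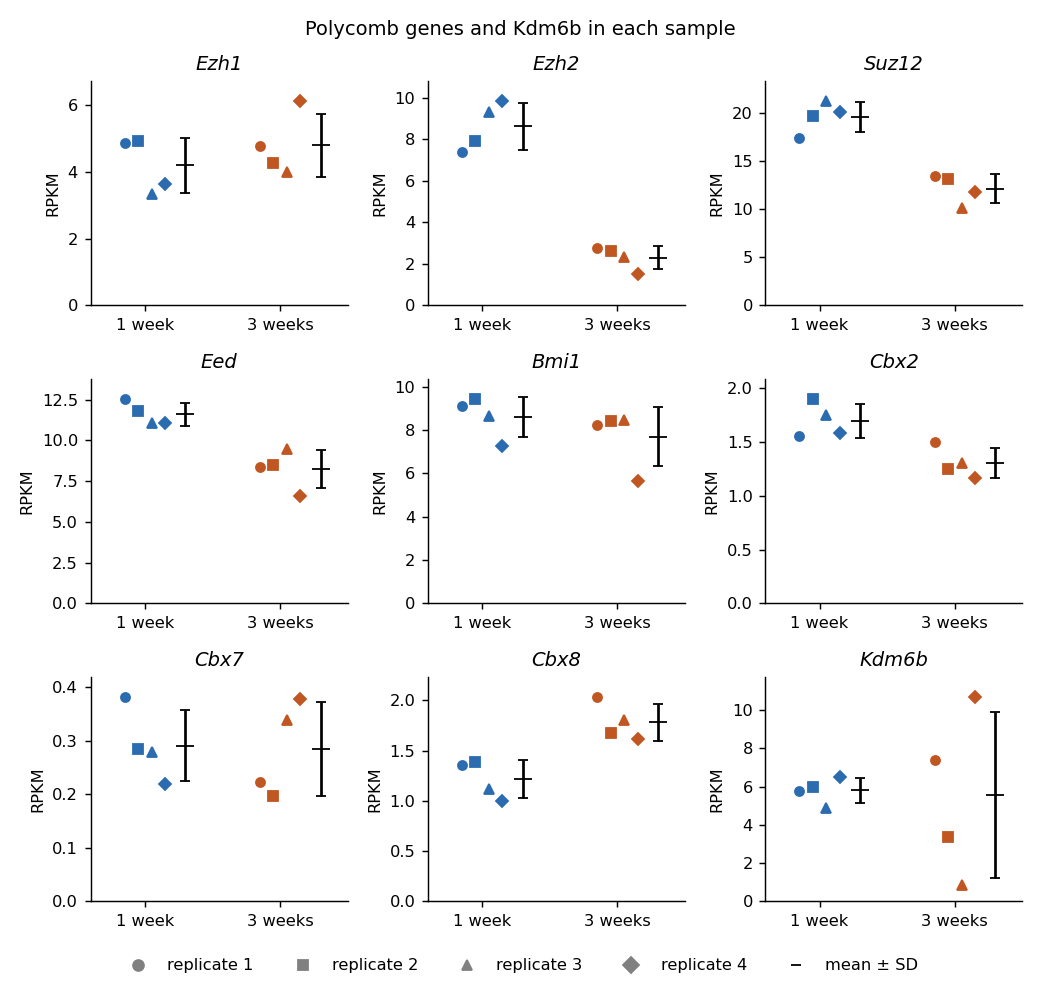
RPKM of the 9 genes in each of the 4 samples at 1 week (blue) and at 3 weeks (orange), on linear axes from 0. The black bars give the mean ± SD (n = 4). On the RPKM scale the time points are fully separated for Ezh2, Suz12, Eed, Cbx2 and Cbx8 (after TMM normalization for Ezh2, Suz12 and Cbx8 only), and Kdm6b spreads from 0.858 to 10.7 RPKM at 3 weeks.

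The promoters of the 3 genes that passed the test are shown. Ezh2 is a known target of E2F factors, which bind near the start of many cell cycle genes. Promoter sequences of 7 of the 9 genes were found in the RefSeq table for GRCm38.p6, with none for Cbx2 and Kdm6b. Windows of 250 bases before to 50 bases after the annotated start were searched on both strands for 4 E2F-type words of 8 letters, TTTCCCGC, TTTCGCGC, TTTGCCGC and TTTGGCGC, none of which contains another. Of 32851 promoter windows of this length in the table, 744 (2.26%) held at least 1 of them. The sequences run 5′ to 3′ on the strand of the gene, each to base 30 after its start, with the matched word in capitals.
Ezh2, chr6:47595001-47595280, minus strand: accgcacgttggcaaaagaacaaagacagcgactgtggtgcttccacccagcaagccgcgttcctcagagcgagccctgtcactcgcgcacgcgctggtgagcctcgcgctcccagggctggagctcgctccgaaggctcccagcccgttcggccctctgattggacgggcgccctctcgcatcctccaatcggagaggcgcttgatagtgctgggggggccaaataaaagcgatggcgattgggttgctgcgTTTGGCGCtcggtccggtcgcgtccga
Suz12, chr11:79992856-79993135, plus strand: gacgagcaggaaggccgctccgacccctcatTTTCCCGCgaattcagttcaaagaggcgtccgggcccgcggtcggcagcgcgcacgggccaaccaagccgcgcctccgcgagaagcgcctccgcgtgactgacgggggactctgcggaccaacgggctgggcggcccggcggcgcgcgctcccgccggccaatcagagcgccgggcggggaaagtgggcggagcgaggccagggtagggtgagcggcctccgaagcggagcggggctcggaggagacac
Cbx8, chr11:119040884-119041163, minus strand: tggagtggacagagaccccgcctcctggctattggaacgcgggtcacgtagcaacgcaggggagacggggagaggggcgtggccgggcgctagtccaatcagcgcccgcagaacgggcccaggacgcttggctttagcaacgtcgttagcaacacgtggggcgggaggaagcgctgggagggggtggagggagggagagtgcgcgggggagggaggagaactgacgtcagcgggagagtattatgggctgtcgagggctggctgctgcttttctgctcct
In Ezh2, the word TTTGGCGC began at base 4 of the transcript. In Suz12, TTTCCCGC began 219 bases before the start. The windows of Cbx8, Ezh1, Eed, Bmi1 and Cbx7 held none of the 4 words, and neither did that of Cdkn2b. Cdkn2a, which was higher at 3 weeks, held TTTCCCGC 99 bases before the upstream of its 2 annotated starts. The window of its other start held none of the 4 words. The reads do not tell from which start the higher RNA came. The word TTTGAA, known as the CHR element of cell cycle promoters, was also searched on both strands and occurred in the windows of Suz12, Eed, Cbx7 and Cdkn2b and in 17.9% of all windows. A match of letters is a description and does not show that a factor binds.

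Ezh2, the catalytic subunit of PRC2 that prevails in dividing cells, showed the largest change of the 9 genes. Its RNA was 7.41, 7.92, 9.32 and 9.82 RPKM in replicates 1 to 4 at 1 week and 2.76, 2.63, 2.32 and 1.50 RPKM at 3 weeks. Every sample at 1 week was above every sample at 3 weeks, with the highest values in replicates 3 and 4 at 1 week and the lowest in replicate 4 at 3 weeks. The log2 fold change was -1.73 (SE 0.21, 95% interval -2.21 to -1.26, adjusted p = 0.000646), that is, 3.32-fold lower. The values rested on 893 to 1157 exon reads per sample at 1 week and on 147 to 344 at 3 weeks. Ezh2 lies on chromosome 6 (47530139 to 47595341, minus strand, GRCm38) and overlaps Gm26625 on the other strand. The call stood under all 21 other settings, with log2 fold changes between -1.90 and -1.55.

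The deposited files also carry a number for each sample, and 3 of these numbers (46, 49 and 90) occur at both time points. What the number marks is not stated in the labels, and the study describes the KCs as the same batches at both times. Within them, the RPKM ratio of Ezh2, 3 weeks over 1 week, was 0.373 for number 46, 0.283 for number 49 and 0.153 for number 90. Cdkn2a differed in the opposite order, with ratios of 4.41, 12.1 and 30.2. Within 1 week, the 4 samples also ranked in reverse order by Ezh2 and by Cdkn2a. At 3 weeks, replicates 1 and 2 had the higher Ezh2 and the lower Cdkn2a values of the group, but replicate 3 had the highest Cdkn2a value and replicate 4 the lowest Ezh2 value. With 4 samples in each group, no correlation was computed. The samples also differed in their levels of long against short transcripts, as described with Kdm6b. The longest transcripts of Ezh2 and Cdkn2a have 2787 and 895 bases. The part of transcript length in these orders was not tested.

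Proliferation genes also fell with the weeks of culture. All 10 genes of a proliferation list (Mki67, Top2a, Ccna2, Ccnb1, Cdk1, Mcm2, Mcm3, Mcm5, Pcna and Rrm2) were called lower at 3 weeks. Among all tested genes, 17.0% were called lower, and the list was chosen with earlier results of these data known. The log2 fold changes lay between -3.90 and -1.36. The call of Mki67 lay near the threshold (adjusted p = 0.0436), with 0 to 46 exon reads per sample at 3 weeks. Their summed level was between 211 and 441 RPKM at 1 week and between 31.3 and 64.7 RPKM at 3 weeks. The part of this difference in the fall of Ezh2 was not tested. Among 9999 other tested genes that averaged 5 CPM or more, the courses most like that of Ezh2 over the 8 samples were those of Rtel1, a DNA helicase (Pearson's r = 0.999), Plk4, the kinase of centriole duplication (0.998), Cdc25c, a phosphatase that activates CDK1 (0.997), Pole2, a subunit of DNA polymerase epsilon (0.997), and Nup205, a nuclear pore protein (0.996). These correlations are of TMM-normalized log2 CPM values, include the difference between the time points, and are given as a description. Since the 5 genes were picked for their likeness to Ezh2, their lower level at 3 weeks follows from the choice and is given without a test. Their log2 fold changes were -2.08 for Rtel1, -2.01 for Plk4, -3.33 for Cdc25c, -2.60 for Pole2 and -0.76 for Nup205.

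Ezh1 encodes the alternative catalytic subunit, which is found mainly in cells that divide little. Its RNA was 4.88, 4.95, 3.35 and 3.65 RPKM at 1 week and 4.79, 4.29, 4.01 and 6.12 RPKM at 3 weeks. The groups overlapped, with the highest value in replicate 4 at 3 weeks, the sample with the lowest Ezh2 level. The log2 fold change of 0.35 (SE 0.18, 95% interval -0.06 to 0.75, adjusted p = 0.167) did not pass the test. The interval does not reach a rise of 1 on the log2 scale, that is, a doubling. The genes closest to Ezh1 in their course over the samples were Fuk, Plppr2, Rmnd5a, Klhdc1 and Zranb1 (r between 0.964 and 0.989). These 5 genes were picked for their likeness to Ezh1, which was not called. That none of them passed the test is therefore given only as a description. The reads of Fuk (32.7% uniquely mapped) and Zranb1 (10.7%) are uncertain.

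The balance of both catalytic subunits was compared within samples, where it does not depend on the scaling between libraries. Per sample, the ratio of Ezh1 to Ezh2 RPKM was 0.658, 0.625, 0.360 and 0.372 at 1 week and 1.73, 1.63, 1.73 and 4.08 at 3 weeks. By RPKM, Ezh2 thus exceeded Ezh1 in every sample at 1 week and Ezh1 exceeded Ezh2 in every sample at 3 weeks. The mean log2 ratio was -1.05 ± 0.47 (SD, n = 4) at 1 week and 1.08 ± 0.64 at 3 weeks, a 4.36-fold difference. A two-sided exact permutation test gave p = 0.0286, the smallest value that 4 against 4 samples allow, and 0.0857 after adjustment over the 3 ratios tested, so that the ratio did not pass the threshold after adjustment. Ezh2 made up 60.3% to 73.5% of the summed RPKM of both genes at 1 week and 19.7% to 38.1% at 3 weeks. The sum itself was 12.8 ± 0.494 RPKM (SD, n = 4) at 1 week and 7.10 ± 0.608 RPKM at 3 weeks.

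**Figure D2:**
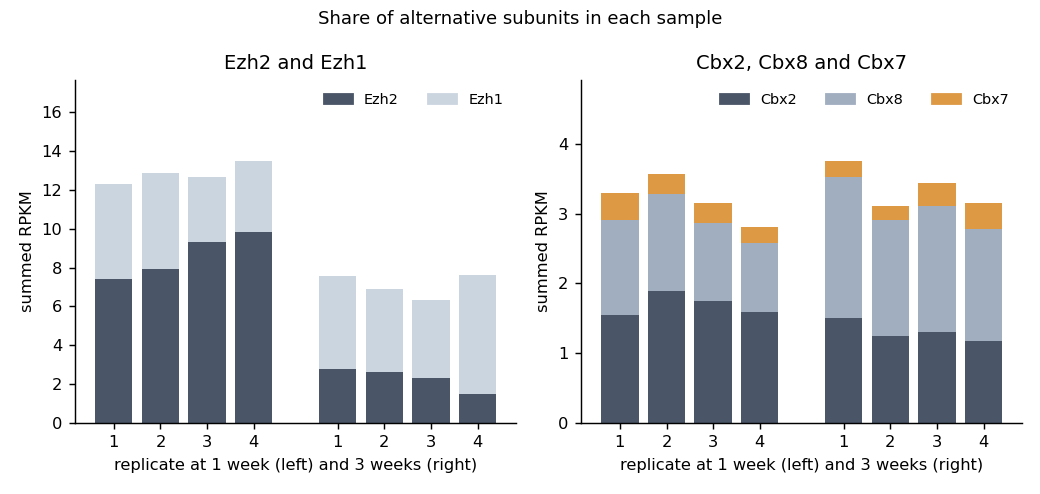
Summed RPKM per sample of the catalytic subunits Ezh2 and Ezh1 (left) and of the chromodomain subunits Cbx2, Cbx8 and Cbx7 (right), with 4 bars for 1 week and 4 for 3 weeks in each panel. The dark part of the left bars, Ezh2, shrinks from 60.3% to 73.5% of the sum at 1 week to 19.7% to 38.1% at 3 weeks, and on the right Cbx8 takes 35.5% to 41.2% at 1 week and 51.1% to 54.1% at 3 weeks.

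Suz12, which holds PRC2 together and is needed for its activity, had the highest mean RPKM of the 9 genes at both times. Its RNA was 17.4, 19.7, 21.2 and 20.0 RPKM at 1 week and 13.5, 13.1, 10.2 and 11.7 RPKM at 3 weeks. No sample at 3 weeks reached the lowest sample at 1 week. The log2 fold change was -0.53 (SE 0.11, 95% interval -0.78 to -0.28, adjusted p = 0.00652), or 1.45-fold lower. Within the shared numbers 46, 49 and 90, the RPKM ratio was 0.773, 0.620 and 0.585. The call was lost in 1 of the 21 other settings, the fit to the 3 shared numbers with the number as a block (log2 fold change -0.53, adjusted p = 0.0606). Of the Suz12 reads, 82.9% mapped uniquely, and with unique reads alone the log2 fold change was -0.57 (adjusted p = 0.00523). Suz12 lies on chromosome 11 (79993106 to 80034123, plus strand) and overlaps Gm26563 on the other strand.

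Eed, whose product reads the methylated lysine and stimulates the enzyme, was 12.5, 11.8, 11.0 and 11.0 RPKM at 1 week and 8.37, 8.52, 9.48 and 6.62 RPKM at 3 weeks. All RPKM values at 3 weeks were below those at 1 week. After TMM normalization the groups overlapped and the log2 fold change of -0.32 (SE 0.16, 95% interval -0.68 to 0.04, adjusted p = 0.156) did not pass the test. On the log2(RPKM + 0.1) scale, limma called Eed lower (-0.50, adjusted p = 0.0166), and on log2(RPKM + 1) likewise (-0.46, adjusted p = 0.0168). Without replicate 3 at 3 weeks, edgeR also called it lower (-0.47, adjusted p = 0.0219). The call for Eed thus turned on the scaling and on 1 sample. Overlapping genes (Gm45120 on the same strand and E230029C05Rik on the other) may share reads with Eed.

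The PRC1 genes were expressed at lower levels, apart from Bmi1. Bmi1, the PCGF subunit known for the repression of Cdkn2a, was 9.09, 9.42, 8.64 and 7.29 RPKM at 1 week and 8.22, 8.42, 8.47 and 5.65 RPKM at 3 weeks. The groups overlapped, and replicate 4 was the lowest sample at either time. The log2 fold change was 0.01 (SE 0.18, 95% interval -0.39 to 0.41, adjusted p = 0.974), and its sign changed with the scaling. The interval leaves room for a change of Bmi1 RNA of up to 0.41 in either direction on the log2 scale. In the same samples Cdkn2a was higher by 3.33 on the log2 scale, and a link between both genes was not tested.

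Cbx2, Cbx7 and Cbx8 encode alternative chromodomain subunits, of which each canonical PRC1 holds 1. Cbx8 was 1.36, 1.39, 1.12 and 1.00 RPKM at 1 week and 2.03, 1.67, 1.81 and 1.61 RPKM at 3 weeks. Every sample at 3 weeks was above every sample at 1 week. Cbx8 had a log2 fold change of 0.71 (SE 0.19, 95% interval 0.28 to 1.15, adjusted p = 0.0196), or 1.64-fold higher, from 59 to 139 exon reads per sample. Within the shared numbers, the RPKM ratio was 1.49, 1.50 and 1.61. The call was lost in 6 of the 21 other settings, in which the log2 fold change was between 0.63 and 0.72. These were the fit to the 3 shared numbers with the number as a block (adjusted p = 0.0908), the fit with the replicate number as a block (0.0612), the fit without a filter on low counts (0.0576), and the fits without replicate 3 at 1 week (0.0546), without replicate 4 at 1 week (0.0589) and without replicate 1 at 3 weeks (0.0582).

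Cbx2 was 1.55, 1.89, 1.75 and 1.58 RPKM at 1 week and 1.50, 1.24, 1.30 and 1.17 RPKM at 3 weeks, from 73 to 166 exon reads. The RPKM values did not overlap, but the TMM-normalized values did, and the log2 fold change of -0.21 (SE 0.17, 95% interval -0.59 to 0.17, adjusted p = 0.365) did not pass the test. Cbx2 and Cbx8 are neighbours on chromosome 11, 5034 bases apart and transcribed toward each other. The ratio of Cbx8 to Cbx2 RPKM, chosen after the values were seen and not tested, was 0.873, 0.733, 0.639 and 0.633 at 1 week and 1.35, 1.34, 1.39 and 1.38 at 3 weeks. Cbx2 was thus the higher of both in every sample at 1 week, and Cbx8 in every sample at 3 weeks.

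Cbx7, the family member best known for the repression of Cdkn2a, had the lowest level of the 9 genes, 0.381, 0.284, 0.279 and 0.218 RPKM at 1 week and 0.223, 0.197, 0.338 and 0.378 RPKM at 3 weeks. These values rest on 21 to 47 exon reads per sample, and the groups overlapped. Cbx7 had a log2 fold change of 0.13 (SE 0.31, 95% interval -0.58 to 0.84, adjusted p = 0.782), an interval that holds changes in both directions. Reads of Apobec3, on the other strand, may add to those of Cbx7. The ratio of Cbx7 to Cbx8 RPKM was 0.205 to 0.280 at 1 week and 0.110 to 0.234 at 3 weeks, a difference of the mean log2 ratios of -0.61. The exact permutation test gave p = 0.0857, or 0.129 after adjustment over the 3 ratios. The courses most like that of Cbx7 were those of Araf, Acot1, Lztr1, Casp8 and Nfkbia (r between 0.900 and 0.940). None of them passed the test, which is given only as a description, since they were picked for their likeness to Cbx7.

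In the whole set, 5 of the 9 genes (Ezh2, Suz12, Eed, Cbx2 and Cbx8) had RPKM values that did not overlap between the time points, as had 37.0% of all tested genes. After TMM normalization, 3 of the 9 (Ezh2, Suz12 and Cbx8) did not overlap. The share of all tested genes was not counted on this scale, so that this count has no background to be set against. By mean RPKM the order at 1 week was Suz12 (19.6 ± 1.57, SD, n = 4), Eed (11.6 ± 0.707), Ezh2 (8.62 ± 1.14), Bmi1 (8.61 ± 0.937), Kdm6b (5.80 ± 0.668), Ezh1 (4.21 ± 0.824), Cbx2 (1.70 ± 0.157), Cbx8 (1.22 ± 0.187) and Cbx7 (0.291 ± 0.0670). The ranges of neighbours in this order were separate except for Ezh2 and Bmi1 and for Kdm6b and Ezh1. At 3 weeks the order was Suz12 (12.1 ± 1.51), Eed (8.25 ± 1.19), Bmi1 (7.69 ± 1.36), Kdm6b (5.57 ± 4.34), Ezh1 (4.80 ± 0.937), Ezh2 (2.30 ± 0.568), Cbx8 (1.78 ± 0.185), Cbx2 (1.30 ± 0.142) and Cbx7 (0.284 ± 0.0875). At this time the ranges of Eed and Bmi1, Bmi1 and Kdm6b, Kdm6b and Ezh1, and Ezh2 and Cbx8 overlapped.

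**Figure D3:**
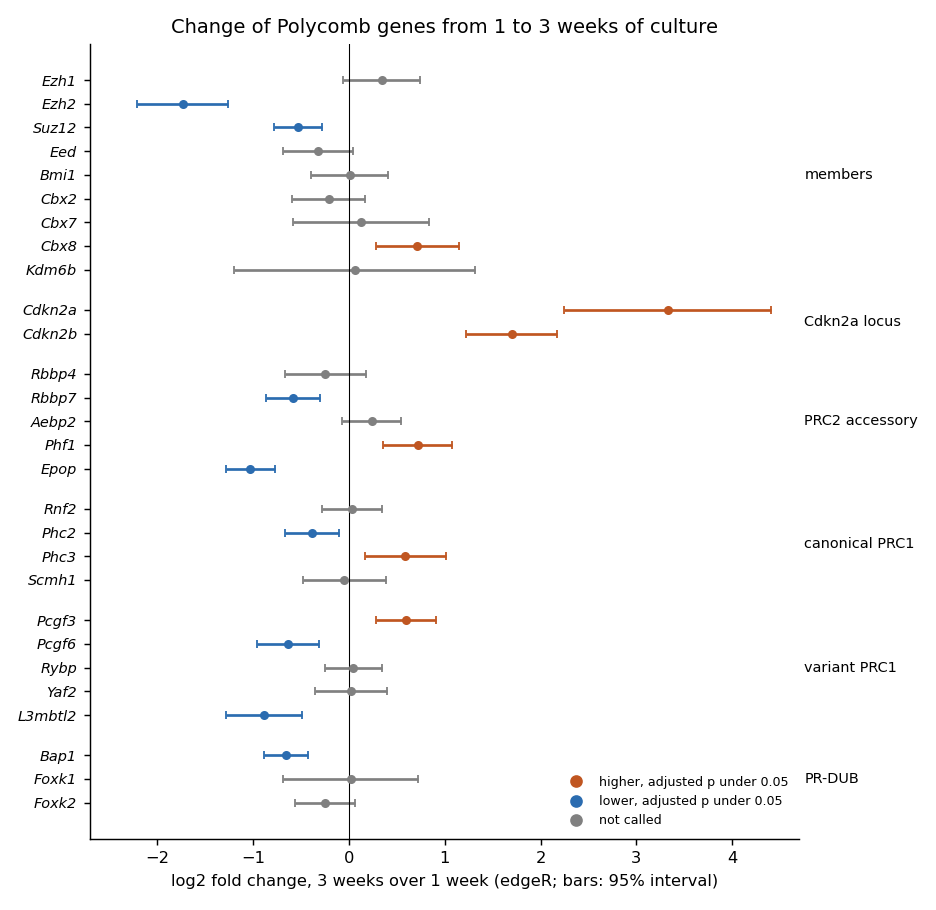
Log2 fold change, 3 weeks over 1 week, from the edgeR fit with its 95% interval for the 9 genes, for Cdkn2a and Cdkn2b, and for other Polycomb genes named in the text except Phf19. Orange marks genes called higher, blue genes called lower and grey genes not called at an adjusted p-value of 0.05. Ezh2 at -1.73 lies farthest to the left, and Cdkn2a at 3.33 farthest to the right.

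Kdm6b, whose product removes the Polycomb mark, was 5.79, 5.99, 4.91 and 6.51 RPKM at 1 week. At 3 weeks it was 7.39, 3.36, 0.858 and 10.7 RPKM. The 1 week values lay close together, whereas those at 3 weeks lay above and below them. The log2 fold change was 0.06 (SE 0.56, 95% interval -1.19 to 1.32, adjusted p = 0.947), so that neither a doubling nor a halving can be told from no change. Without replicate 3 at 3 weeks the log2 fold change was 0.39 (adjusted p = 0.378), and without replicate 4 at 3 weeks it was -0.44 (adjusted p = 0.551). The ratio of Kdm6b to Ezh2 RPKM was 0.527 to 0.782 at 1 week and 0.371 to 7.12 at 3 weeks, with 3 of the 4 samples at 3 weeks above all samples at 1 week. The difference of the mean log2 ratios was 1.36 (exact permutation p = 0.229, and 0.229 after adjustment over the 3 ratios).

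The Kdm6b level at 3 weeks varied with the length dependence of the libraries. For each sample, Spearman's rho was computed across 12588 genes, which are not independent, between the length of the longest transcript and the deviation of the gene from the mean of its time point. It was 0.363, -0.105, -0.535 and 0.342 for replicates 1 to 4 at 3 weeks and -0.381, -0.027, 0.213 and 0.189 at 1 week. Long transcripts were thus low in replicate 3 at 3 weeks, where Kdm6b was at 0.858 RPKM. They were high in replicates 1 and 4, where Kdm6b was at 7.39 and 10.7 RPKM. At 1 week Kdm6b did not follow rho, with its lowest value (4.91 RPKM) at the highest rho (0.213). Cbx7, with a longest transcript of 6057 bases, did not follow rho at 3 weeks. It was at 0.223, 0.197, 0.338 and 0.378 RPKM in replicates 1 to 4, from few reads. With 6654 bases, the longest Kdm6b transcript exceeds the median of 3358 bases over the tested genes with a known length and is longer than that of 89.6% of them or equal to it. The genes most like Kdm6b in their course were Asxl2, Dst, Zfpm1, Abcc10 and Zfp592 (r between 0.976 and 0.981), and their longest transcripts had 11934, 23279, 3390, 5266 and 7297 bases. Of the Zfpm1 reads, only 16.1% mapped uniquely. When transcript length was added to the fit as an offset for each sample, an alternative chosen after the data were seen, the log2 fold change of Kdm6b was -0.18 (adjusted p = 0.793), while those of Ezh2 (-1.70), Suz12 (-0.54) and Cbx8 (0.75) kept their calls. Reads of Kdm6bos, on the other strand, may add to those of Kdm6b.

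**Figure D4:**
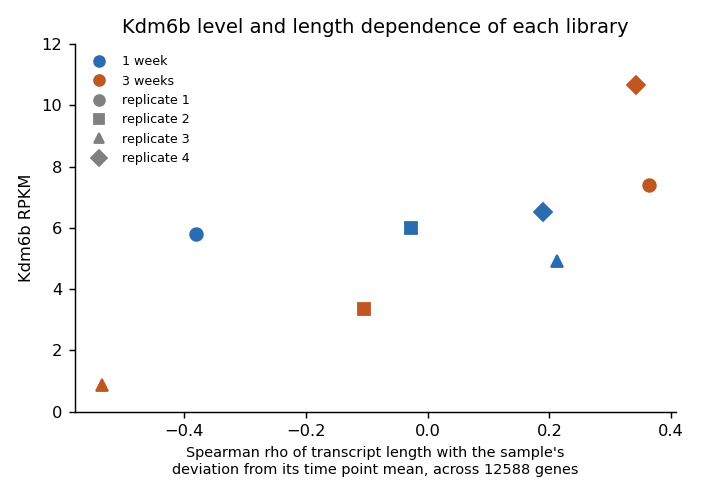
Kdm6b RPKM of each sample (vertical axis) against Spearman's rho between transcript length and the deviation of each gene from its time point mean in that sample (horizontal axis), with 1 week in blue, 3 weeks in orange and the replicate number by marker shape. At 3 weeks the Kdm6b level runs from 0.858 RPKM at rho = -0.535 to 10.7 RPKM at rho = 0.342, while the 1 week samples stay between 4.91 and 6.51 RPKM.

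Other genes of the Polycomb system, 33 in 4 lists, were read from the same fit. Of them 3 were higher and 7 lower at 3 weeks, so that 10 of 33 (30.3%) were called against 32.8% of all tested genes, and their median log2 fold change was -0.004 against 0.03 for all tested genes. Of the 8 accessory genes of PRC2, 1 was higher and 3 were lower. Phf1, a Polycomb-like protein that guides PRC2, was 3.52 to 4.92 RPKM at 1 week and 4.96 to 7.85 RPKM at 3 weeks (log2 fold change 0.72, SE 0.16, adjusted p = 0.00917). Epop, which links PRC2 to elongin, was 22.9 to 25.2 RPKM at 1 week and 9.73 to 11.9 RPKM at 3 weeks (-1.03, SE 0.11, adjusted p = 0.000433). The histone chaperone gene Rbbp7 was 72.9 to 79.2 RPKM at 1 week and 42.8 to 48.99 RPKM at 3 weeks (-0.58, SE 0.12, adjusted p = 0.00723).

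Phf19, a Polycomb-like gene related to Phf1, had 25, 27, 23 and 41 exon reads at 1 week and 0, 0, 1 and 2 reads at 3 weeks. No sample at 3 weeks came near the lowest sample at 1 week (adjusted p = 0.000937). Relative to all exon reads, the 3 reads at 3 weeks against 116 at 1 week give a ratio of 0.0280, with an exact 95% interval from 0.00569 to 0.0839 that covers counting error only. The other accessory genes with the highest levels, Rbbp4 (-0.24, adjusted p = 0.347) and Aebp2 (0.24, adjusted p = 0.210), did not pass the test. Of the Rbbp4 reads, 69.6% mapped uniquely.

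Among the 9 other genes of canonical PRC1, 1 was higher and 1 lower. The Polyhomeotic genes Phc3 (0.59, SE 0.19, adjusted p = 0.0379) and Phc2 (-0.38, SE 0.12, adjusted p = 0.0438), whose products join PRC1 complexes to each other, were called in opposite directions. Both calls lay near the threshold and were lost in 13 and 11 of the 21 other settings. Rnf2, the ubiquitin ligase of PRC1, was 14.1 to 17.8 RPKM at 1 week and 13.3 to 15.8 RPKM at 3 weeks (0.03, adjusted p = 0.877), and Scmh1 gave -0.05 (adjusted p = 0.878). Among the 10 genes of variant PRC1, 1 was higher and 2 were lower. Pcgf3 was 18.0 to 22.2 RPKM at 1 week and 22.2 to 28.6 RPKM at 3 weeks (0.60, SE 0.14, adjusted p = 0.0112). Pcgf6 was 9.54 to 11.5 RPKM at 1 week and 4.99 to 7.33 RPKM at 3 weeks (-0.64, SE 0.14, adjusted p = 0.00925). L3mbtl2, a partner of PCGF6, was 3.59 to 5.43 RPKM at 1 week and 1.82 to 2.64 RPKM at 3 weeks (-0.88, SE 0.17, adjusted p = 0.00511), although only 40.7% of its reads mapped uniquely. Rybp (0.05, adjusted p = 0.811) and Yaf2 (0.03, adjusted p = 0.927) did not pass the test.

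Of the 6 genes for H3K27 demethylation and for the PR-DUB complex, which removes ubiquitin from histone H2A, 1 was lower. This was Bap1, the deubiquitinase itself, with 11.4 to 12.4 RPKM at 1 week and 5.76 to 7.24 RPKM at 3 weeks (-0.65, SE 0.10, adjusted p = 0.00168). Its partners Foxk1 (0.02, adjusted p = 0.969) and Foxk2 (-0.25, adjusted p = 0.202) did not pass the test.

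**Figure D5:**
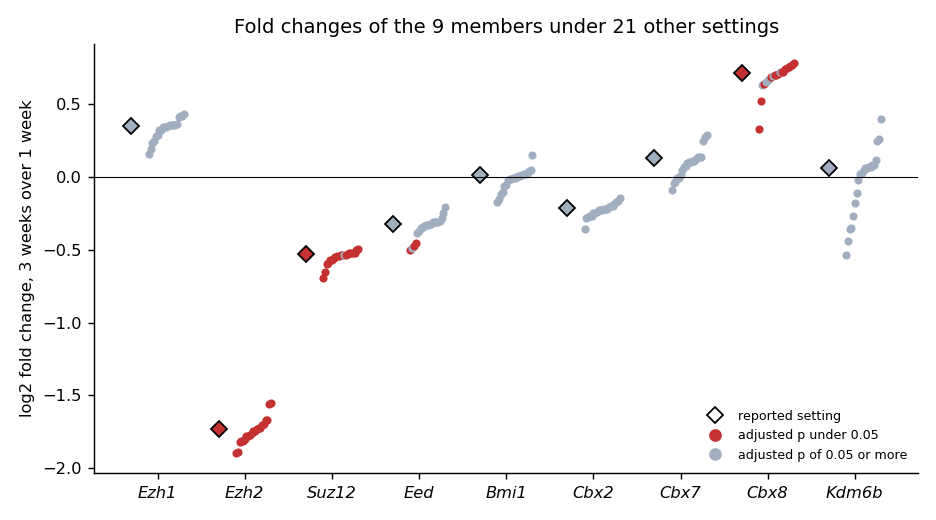
Log2 fold changes of the 9 genes as reported (diamonds) and under 21 other settings (points, ordered by value), in red where the adjusted p-value was under 0.05. Ezh2 is red throughout, between -1.90 and -1.55, Suz12 loses its call in 1 setting and Cbx8 in 6, Eed gains one in 3, and Kdm6b spreads on both sides of 0.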

How the data were processed

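RNA of KCs after 1 or 3 weeks of culture (4 samples each) was analysed from the deposited gene tables, with groups taken from the labels. The authors enriched poly(A) RNA and aligned reads to GRCm38 with CLC Genomics Workbench 12.0. The deposited counts are whole reads per gene, without normalization. The authors also deposited RPKM (exon reads per exon length and mapped reads) and TPM values, written with decimal commas, of which RPKM was used. The annotation release and the use of strand are not given in the sources used here.

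Total exon reads were fitted with edgeR 4.0.16 in R 4.3.3 (filterByExpr, TMM, glmQLFit, glmQLFTest, no pairing), with Benjamini-Hochberg adjustment over 12590 genes, and the procedure was tested on simulated data. Standard errors came from the F statistics. RPKM ratios were compared by exact permutation over 70 arrangements. Replicates differed by at least 14.6 in chi-square per degree of freedom, so that none was a repeated library. Computations outside R used Python 3.11.15, and figures were drawn with matplotlib 3.10.9. Alternatives were DESeq2 1.42.0, other normalizations, filters and read types, limma 3.58.1 on log2(RPKM + 0.1) or log2(RPKM + 1), blocks, the omission of each sample and, added after seeing the data, offsets for transcript length and GC content from GENCODE M21.

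Named were the 9 genes, Cdkn2a and Cdkn2b, every gene called in the 4 other Polycomb lists with the 2 most abundant ones not called in each, and for Ezh2, Ezh1, Cbx7 and Kdm6b the 5 genes of at least 5 CPM with the highest Pearson's r. The genes and lists were chosen with earlier results of these data known.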

Additional observations from a re-analysis of the deposited data

Results flagged for a closer look

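Samples far from the others of their time point were searched among the RPKM values of 49 named genes, in 98 groups of 4 samples, by Dixon's criterion, which chance meets in about 5% of groups. It was met 4 times, which is not above this rate, each time by replicate 4 at 3 weeks as the lowest sample. Bmi1 was at 5.65 RPKM there, against 8.22 to 8.47 RPKM in the other samples at 3 weeks. Pcgf3 was at 22.2 RPKM, against 27.8 to 28.6 RPKM. The cell cycle genes Plk4 (0.636 RPKM, against 1.23 to 1.35 RPKM) and Pole2 (0.425 RPKM, against 1.10 to 1.14 RPKM) were also lowest in this sample. Ezh2 itself was at 1.50 RPKM there. Plk4 and Pole2 were picked for their likeness to Ezh2 over these samples, so that their low values in this sample follow from the choice.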

How the results depend on the processing

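The count of genes called among all tested genes was 4127 and lay between 2867 (replicate block) and 4882 (DESeq2) under the 21 alternatives, and between 3015 and 4861 with 1 sample omitted at a time. Of the 9 genes, Ezh2 kept its call in all 21, Suz12 in 20 and Cbx8 in 15. The count called higher was 0 in place of 1 without the filter on low counts (Cbx8 adjusted p = 0.0576) and with the replicate block (0.0612). It was also 0 with the 3 shared numbers (0.0908), and between 0 and 1 with 1 sample omitted at a time. The count called lower was 1 with the 3 shared numbers. Of the other Polycomb genes, 1 in place of 3 was higher with the transcript length offset and with the GC and length offset, both added after the data were seen. The mean log2 ratio of Ezh1 to Ezh2 differed by 2.13 with the replicate block, where 4 pairs allow no exact p-value under 0.125, and by 1.81 to 2.27 with 1 sample omitted, where no p-value under 0.0571 is possible. Same-numbered replicates did not deviate together (correlations of their deviations between -0.227 and 0.249). Such deviations also carry differences between libraries, so that they do not decide whether the replicate numbers pair the samples. Replicates 1 and 4 carried the numbers 46 and 90 at both times. Replicate 2 carried 47 at 1 week and 49 at 3 weeks, and replicate 3 carried 49 and 57. For replicates 2 and 3, the replicate block thus joined samples of different numbers. For the shared numbers 46, 49 and 90, taken from the file names, the correlations were -0.227, 0.200 and 0.249. The 3 did not deviate together throughout.

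Some genes that did not pass the test changed sign between settings, as log2 fold changes, while Ezh1, Eed, Cbx2, Rbbp4, Aebp2 and Foxk2 kept theirs. With limma on log2(RPKM + 0.1), a scale on which the median of all genes was at -0.16, Bmi1 was at -0.17, Cbx7 at -0.038, Kdm6b at -0.54, Rnf2 at -0.14, Rybp at -0.12, Yaf2 at -0.16 and Foxk1 at -0.24. With limma on log2(RPKM + 1), where the median was at -0.10, they were at -0.15, -0.0085, -0.35, -0.13, -0.11, -0.15 and -0.20. Without the filter on low counts, Bmi1 was at -0.057, Rnf2 at -0.033, Rybp at -0.016, Yaf2 at -0.043 and Foxk1 at -0.031. With the 3 shared numbers, Bmi1 was at -0.10, Cbx7 at -0.087, Rnf2 at -0.048 and Yaf2 at -0.14. With the replicate block, Bmi1 was at -0.011, Kdm6b at -0.35 and Foxk1 at -0.073. Bmi1 and Foxk1 were at -0.0031 and -0.0024 with upper-quartile normalization and at -0.0043 and -0.0025 with all reads on the gene, and with unique reads Bmi1 was at -0.022, Yaf2 at -0.0074 and Foxk1 at -4.3e-05. Kdm6b and Foxk1 were at -0.18 and -0.15 with the length offset and at -0.27 and -0.19 with the GC and length offset. With 1 sample omitted, Bmi1 lay between -0.12 and 0.15, Cbx7 between -0.042 and 0.29, Kdm6b between -0.44 and 0.39, Rnf2 between -0.094 and 0.084, Scmh1 between -0.14 and 0.11, Rybp between -0.029 and 0.13, Yaf2 between -0.16 and 0.10, and Foxk1 between -0.15 and 0.24. The cause was not tested.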
